A study of Mus musculus with 12 samples.

Results

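Sterol and fatty acid synthesis genes are the enzymes that build cholesterol and fatty acids from acetyl-CoA, together with the SREBP transcription factors and their regulators. The 35 genes examined here were listed by name from their place in the pathway. The rule itself uses no measured value. Of them, 32 were measured among 12255 genes on the arrays: 17 of 18 sterol synthesis enzymes, 5 of 6 SREBP regulators and sterol transport genes, and 10 of 11 fatty acid synthesis genes. Acat2, Insig1 and Acsl3 were not analysed here.

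The arrays read total RNA from aTC1 (αTC1), a glucagon-making mouse islet tumour line, and from bTC3 (βTC3), an insulin-making mouse islet tumour line, called alpha cells and beta cells below. Both lines come from tumours driven by the SV40 large T antigen, so all 4 groups carry this viral protein. In each line, 3 cultures received 3.3 µM GW8510, described by the study as a putative CDK2 inhibitor, and 3 received the vehicle, 0.1% DMSO, which was also present with the compound. The source field of GW8510 replicates 2 and 3 in each line names the compound GW8511 and GW8512, while the title and compound fields of all 6 name GW8510, which is used here. Treatment lasted 5 days, with medium and compound renewed on day 3, and each of the 4 groups has 3 biological replicates with 1 array each. The study asked what GW8510 does to the alpha cell transcriptome. Each line is an established tumour line, so the replicates are cultures of the same cells and not separate animals.

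Cholesterol synthesis starts from HMG-CoA, passes through mevalonate and isoprenoid diphosphates to squalene, and ends in a series of sterol modifications. When sterols are low in the endoplasmic reticulum, SCAP carries the SREBPs to the Golgi, where proteases release the active factor, while INSIG proteins hold SCAP back when sterols are high. SREBP2, encoded by Srebf2, is best known for sterol genes, and SREBP1, encoded by Srebf1, for fatty acid genes. In islet cells, fatty acid synthesis and desaturation supply membrane and granule lipid.

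SREBPs bind the sterol element and E-boxes, usually beside sites of the general factors NF-Y and Sp1. Promoter windows from 250 bases before to 50 bases after the start site were taken from RefSeq (GRCm38.p6), and 28 of the 35 genes had one. The windows were searched on both strands for the sterol element TCACNCCAC, the E-box ATCACGTGA, its core CACGTG (which lies within it), the NF-Y box CCAAT and the Sp1 box GGGCGG. The NF-Y box was present in 23 of the 28 genes and in 24 of their 36 windows (66.7%), against 37.4% of all 32851 windows. The Sp1 box was also present in 23 genes and in 27 of the 36 windows (75%), against 35.7% of all windows. CACGTG was found in 6 genes and 7 of the 36 windows (19.4%, against 7.15% of all windows), namely Dhcr7, Elovl5, Hsd17b7, Insig1, Sc5d and Scap. TCACNCCAC was found only in Hmgcs1 among the 28 (1.24% of all windows), and ATCACGTGA in 0 of 28 (0.317% of all windows). A match in letters is a description and not a bound site.

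The 250 bases before the start site are shown for 5 genes, 5′ to 3′ in the direction of transcription. Hmgcs1 is shown for its sterol element, Idi1, Hsd17b7 and Fasn as the largest rises shared by both lines, and Tm7sf2 for its opposite response in the 2 lines. Capitals mark TCACNCCAC (in Hmgcs1 as TCACCCCAC, first base at -137 from the start site), CACGTG (in Hsd17b7, at -143) and CCAAT or its complement ATTGG.
Hmgcs1, chr13:119690101-119690350, plus strand: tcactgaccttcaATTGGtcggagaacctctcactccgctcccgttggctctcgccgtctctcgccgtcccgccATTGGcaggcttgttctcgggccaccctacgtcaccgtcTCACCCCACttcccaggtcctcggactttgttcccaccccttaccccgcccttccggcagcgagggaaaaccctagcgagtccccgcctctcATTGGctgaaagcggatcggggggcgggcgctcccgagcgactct
Idi1, chr13:8885356-8885605, plus strand: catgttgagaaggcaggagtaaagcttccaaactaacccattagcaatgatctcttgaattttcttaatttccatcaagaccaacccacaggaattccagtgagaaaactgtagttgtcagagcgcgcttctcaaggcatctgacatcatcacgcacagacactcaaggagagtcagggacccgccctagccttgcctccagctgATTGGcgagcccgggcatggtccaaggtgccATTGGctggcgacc
Hsd17b7, chr1:169969206-169969455, minus strand: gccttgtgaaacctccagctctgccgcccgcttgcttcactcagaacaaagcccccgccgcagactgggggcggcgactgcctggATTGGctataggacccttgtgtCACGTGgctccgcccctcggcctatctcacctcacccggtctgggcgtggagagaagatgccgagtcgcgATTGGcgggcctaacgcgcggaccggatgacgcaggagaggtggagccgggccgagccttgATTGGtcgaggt
Fasn, chr11:120824548-120824797, minus strand: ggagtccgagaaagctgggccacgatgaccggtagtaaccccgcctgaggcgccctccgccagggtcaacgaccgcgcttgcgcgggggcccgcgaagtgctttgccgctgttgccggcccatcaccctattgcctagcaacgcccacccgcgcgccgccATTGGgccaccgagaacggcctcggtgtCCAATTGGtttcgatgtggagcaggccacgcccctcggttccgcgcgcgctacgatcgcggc
Tm7sf2, chr19:6067851-6068100, minus strand: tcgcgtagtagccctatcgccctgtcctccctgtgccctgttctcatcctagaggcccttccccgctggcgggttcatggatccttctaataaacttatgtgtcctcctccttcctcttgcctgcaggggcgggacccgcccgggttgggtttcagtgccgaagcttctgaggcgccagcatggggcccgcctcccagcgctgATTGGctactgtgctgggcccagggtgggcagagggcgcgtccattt

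Values are array intensities on a linear scale between 20 and 20000, and changes are log2 fold changes of GW8510 over DMSO. No array was at either bound for any of the 32 genes. A gene was called higher or lower at an adjusted p under 0.05 from limma, with Benjamini-Hochberg adjustment over all 12255 genes. Over all genes, standard errors of log2 fold changes had a median of 0.08, a precision that the 3 arrays a group limit. Other probe sets of a gene were tested in a fit of every probe set. Array medians were 173.7 to 182.0 in intensity except for beta GW8510 replicate 3, at 199.9, and the lowest correlation between arrays of a group across genes was 0.994. The arrays read whole cultures, so fewer cells with a transcript and less transcript per cell cannot be told apart.

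The labelled cell types were checked against their markers. Gcg, which encodes glucagon, was at the upper bound on all alpha arrays and at 6420.2 ± 367 (mean ± SD, n = 3) in beta cells with DMSO. Ins2, which encodes insulin, was at the upper bound on all beta arrays and at 96.8 ± 1.82 in alpha cells with DMSO. The alpha cell factor Irx1 stood at 2084 and 28.2 in alpha and beta cells with DMSO, and the beta cell factor Pdx1 at 70.8 and 3276. Of the 6 measured alpha cell markers, 4 were lower in beta cells, Slc38a5 did not pass, and Ttr went the other way, at 8351 ± 511 in alpha cells and at the upper bound in beta cells. All 6 measured beta cell markers were higher in beta cells. Of 3 delta and PP cell markers, Sst, the somatostatin gene, was far higher in beta cells (17819 ± 646 against 69.0 ± 10.3), Hhex was lower (log2 -0.21) and Ppy did not pass. With GW8510, Hhex rose 2.03-fold in alpha cells (log2 1.02), and the other 2 did not pass there, nor any of the 3 in beta cells. Sst was at the upper bound on all 3 beta GW8510 arrays, above all its beta DMSO arrays. The size of its rise in beta cells therefore cannot be read, and the bound also limits the sum that follows. The summed intensity of these 3 was 157 to 165 with DMSO and 201 to 228 with GW8510 in alpha cells, and 17181 to 18384 and 20090.2 to 20107 in beta cells. Of the 6 measured beta cell markers, 3 were higher with GW8510 in alpha cells (Ins2, Iapp and Pdx1) and none was lower, and their summed intensity was 2338 to 2469 with DMSO and 2950.3 to 3249 with GW8510. In beta cells 1 of the 6 was higher (Slc2a2) and 2 were lower (Pdx1 and Nkx6-1), with sums of 53647 to 54977 and 57022 to 59068. Ins2 and Iapp were at the upper bound on all beta arrays, where a rise could not be read. Of the 6 measured alpha cell markers, 2 were higher (Ttr and Pou3f4) and 2 lower (Irx1 and Irx2) in alpha cells, and 2 were higher in beta cells (Gcg and Slc38a5). Their sums were 32275 to 33394 with DMSO and 43364 to 43719 with GW8510 in alpha cells, and 26419.9 to 27107 and 31820.1 to 33442 in beta cells. Most of the rise of the sum in alpha cells came from Ttr, which went from 8351 ± 511 to 19884 ± 188, near or at the bound. Gcg was at the bound on all alpha arrays and Ttr on all beta arrays, where a rise could not be read. Among 8 fibroblast and endothelial, 5 exocrine and duct and 5 immune markers, Cela1 was higher in both lines, Cd3e in alpha cells and Col1a2 in beta cells. Their summed intensities in alpha cells were 617 to 633 with DMSO and 611 to 743 with GW8510, 756 to 785 and 962 to 1042, and 316 to 337 and 362 to 417, in that order. In beta cells they were 588 to 709 and 773 to 933, 322 to 373 and 402 to 459.9, and 288 to 332 and 322 to 362. The part of any of these markers in the results below was not tested.

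In alpha cells treated with GW8510, sterol enzymes and fatty acid genes did not move as 1 block. Most called sterol enzymes were higher, led by Hsd17b7 and Idi1, whereas the desaturases Scd1, Scd2, Fads1 and Fads2, the factor genes Srebf1 and Srebf2 and the sterol carrier Stard4 were lower. Of the 32 genes, 11 were higher, 11 lower and 10 did not pass, against 20.2% of all genes higher and 21.2% lower. In beta cells, 16 were higher, 1 was lower (Acly) and 15 did not pass, against 19.7% higher and 14.3% lower among all genes. Without beta GW8510 replicate 3, the array with the higher median, 15 of the 32 genes were higher and 1 was lower in beta cells, while all genes went from 2417 higher and 1757 lower to 1948 and 2005. The median log2 fold change of the 32 genes was -0.10 in alpha and 0.19 in beta cells, beside 0.03 and 0.07 over all genes. GW8510 and DMSO arrays did not overlap in 28 of 32 genes in alpha cells (51.4% of all genes) and in 20 of 32 in beta cells (45.9% of all genes).

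**Figure D1:**
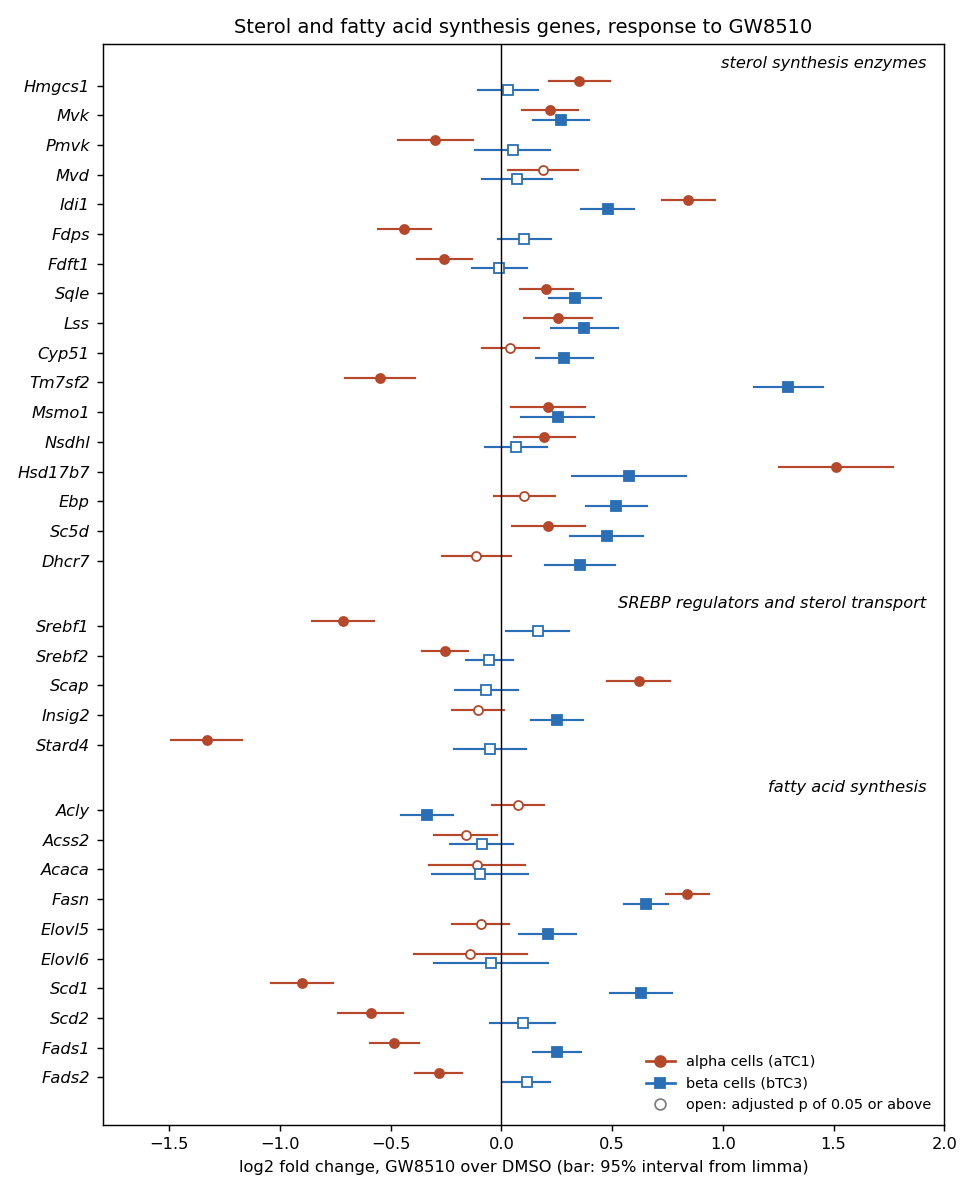
Log2 fold change of GW8510 over DMSO (horizontal axis) for each of the 32 measured genes in pathway order, in alpha cells (circles) and beta cells (squares), with 95% intervals from limma; filled symbols passed at adjusted p under 0.05. Hsd17b7 in alpha cells (1.51) and Tm7sf2 in beta cells (1.30) stand farthest to the right, and Stard4 (-1.33) and Scd1 (-0.90) in alpha cells farthest to the left.

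Across the sterol pathway, 7 enzymes rose in both lines: Mvk, Idi1, Sqle, Lss, Msmo1, Hsd17b7 and Sc5d. Of 17 enzymes, 9 were higher, 4 lower and 4 not called in alpha cells, and 11 were higher, 0 lower and 6 not called in beta cells (limma; 0 lower at an unadjusted p under 0.05 also). The 4 that were lower in alpha cells were Pmvk, Fdps, Fdft1 and Tm7sf2. Among all genes, 20.2% were higher and 21.2% lower in alpha cells, and 19.7% higher and 14.3% lower in beta cells. The median log2 fold change of the enzymes was 0.19 in alpha and 0.28 in beta cells.

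The upper part of the pathway, from acetyl-CoA units to isoprenoids, was split in alpha cells. Hmgcs1, the synthase that makes HMG-CoA, had intensities of 1883, 1869 and 1965 with DMSO and 2392, 2515 and 2392 with GW8510 in alpha cells. Beta cells gave 2693, 2750.3 and 2541 with DMSO and 2517, 2914 and 2739 with GW8510. The alpha groups lay apart and the beta groups overlapped. The log2 fold changes were 0.35 in alpha cells (standard error 0.06, adjusted p = 5.65e-04) and 0.03 in beta cells (adjusted p = 0.736). The other probe sets gave 0.12 to 0.34 in alpha cells, 1 of 3 called, and -0.17 to -0.06 in beta cells, none called.

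Mvk and Pmvk are the kinases that phosphorylate mevalonate in turn. Mvk rose by 0.22 on the log2 scale in alpha and 0.27 in beta cells, whereas Pmvk had -0.30 in alpha cells, a call, and 0.05 in beta cells. The other probe set of Mvk gave 0.25, called, and 0.12, not called. Mvd, the decarboxylase that follows, passed in neither line, with 0.19 in alpha cells (adjusted p = 0.0565) and 0.07 in beta cells. Idi1, the isomerase of isopentenyl diphosphate, was read at 1416, 1316 and 1383 with DMSO and at 2450.1, 2483 and 2446 with GW8510 in alpha cells. Beta cells gave 2289, 2313 and 2159 with DMSO and 3022, 3107 and 3304 with GW8510. The GW8510 arrays were above the DMSO arrays in both lines without overlap. Idi1 rose 1.79-fold in alpha cells (log2 0.84, standard error 0.05, adjusted p = 1.44e-07) and 1.39-fold in beta cells (log2 0.48, adjusted p = 3.49e-05). Its dimmer probe set gave 0.93 in alpha cells, also called, and 0.32 in beta cells, not called.

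Downstream of Idi1, farnesyl diphosphate is made and joined into squalene. Fdps, the farnesyl diphosphate synthase, fell from 2854 ± 31.9 to 2108 ± 56.8 in alpha cells (log2 -0.44, adjusted p = 3.66e-05) and had 3828 ± 156.8 and 4113 ± 206 in beta cells, a difference that did not pass (log2 0.10). Fdft1, squalene synthase, had -0.26 in alpha cells (adjusted p = 0.00264) and -0.01 in beta cells. Its 3 other probe sets gave 0.02 to 0.15 in alpha cells, none called, so the fall of Fdft1 rests on 1 of 4 probe sets. In beta cells these 3 gave 0.07 to 0.23, of which the largest was called higher. Sqle, the epoxidase that oxidizes squalene, and Lss, which closes the sterol rings, rose in both lines, with log2 fold changes of 0.20 and 0.26 in alpha and 0.33 and 0.37 in beta cells. The other probe sets of Lss gave 0.01 and 0.30 in alpha cells, of which the second was called, and 0.17 and 0.23 in beta cells, neither called.

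The enzymes that modify the sterol rings held the largest rises of the pathway. Hsd17b7, the keto reductase of sterol demethylation, which also reduces estrone, had 446, 475 and 447 with DMSO and 1432, 1411 and 1080.4 with GW8510 in alpha cells. The beta cell values were 532, 589.9 and 502 with DMSO and 737, 756 and 937 with GW8510. The groups lay apart in both lines, and alpha GW8510 replicate 3 was the lowest of its group. Hsd17b7 rose 2.85-fold in alpha cells (log2 1.51, standard error 0.12, adjusted p = 7.23e-07) and 1.49-fold in beta cells (log2 0.58, standard error 0.12, adjusted p = 0.00248). Its other probe set was also called higher in both lines, with 0.41 in beta cells and the larger rise in alpha cells (beta minus alpha response -1.09).

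Tm7sf2, a sterol reductase of the endoplasmic reticulum, moved in opposite directions. In alpha cells it was read at 336, 319 and 328 with DMSO and at 209, 244 and 220.2 with GW8510. In beta cells it was read at 367, 385 and 343 with DMSO and at 885, 844 and 958 with GW8510. The GW8510 arrays were all below the DMSO arrays in alpha cells and all above them in beta cells. The fall in alpha cells was to 0.684-fold (log2 -0.55, standard error 0.07, adjusted p = 5.47e-05), and the rise in beta cells was 2.45-fold (log2 1.30, standard error 0.07, adjusted p = 1.77e-07). Tm7sf2 has 1 probe set, so no other reading of it was possible here.

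Of the remaining ring-modifying enzymes, Msmo1, the methylsterol monooxygenase, rose by 0.21 and 0.25 on the log2 scale in alpha and beta cells, and Sc5d, a sterol desaturase, by 0.21 and 0.47. The dimmer probe set of Sc5d gave 0.01 and -0.02, neither called. Nsdhl, a dehydrogenase that acts in removing methyl groups, rose by 0.19 in alpha cells and had 0.07 in beta cells. Cyp51, the lanosterol demethylase, Ebp, the sterol isomerase, and Dhcr7, the reductase that completes cholesterol, were called in beta cells only, at 0.28, 0.52 and 0.35. In alpha cells these 3 had 0.04, 0.10 and -0.11. Of the other probe sets of Cyp51, 1 of 2 was called in beta cells (0.42 and 0.06). Ebp reached 4758 ± 277 from 3318 ± 167 in beta cells.

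Several of the small rises in alpha cells had an adjusted p near 0.05, and their calls were lost when single arrays were left out. Without a beta array, the log2 fold changes of Msmo1 and Sc5d in alpha cells stayed at 0.21, and only the calls could change. The adjusted p of Msmo1 was 0.0525 to 0.162 without alpha DMSO replicate 1 or 3, alpha GW8510 replicate 2 or 3, beta DMSO replicate 1, 2 or 3, or beta GW8510 replicate 2. That of Sc5d was 0.0507 to 0.119 without any 1 of the alpha DMSO replicates, alpha GW8510 replicate 1 or 3, beta DMSO replicate 2 or beta GW8510 replicate 2, and that of Nsdhl was 0.0565 to 0.112 without alpha DMSO replicate 1 or 3 or alpha GW8510 replicate 2 or 3. In beta cells, Msmo1 had 0.0574 to 0.0753 without beta DMSO replicate 1 or 3 or beta GW8510 replicate 3.

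**Figure D2:**
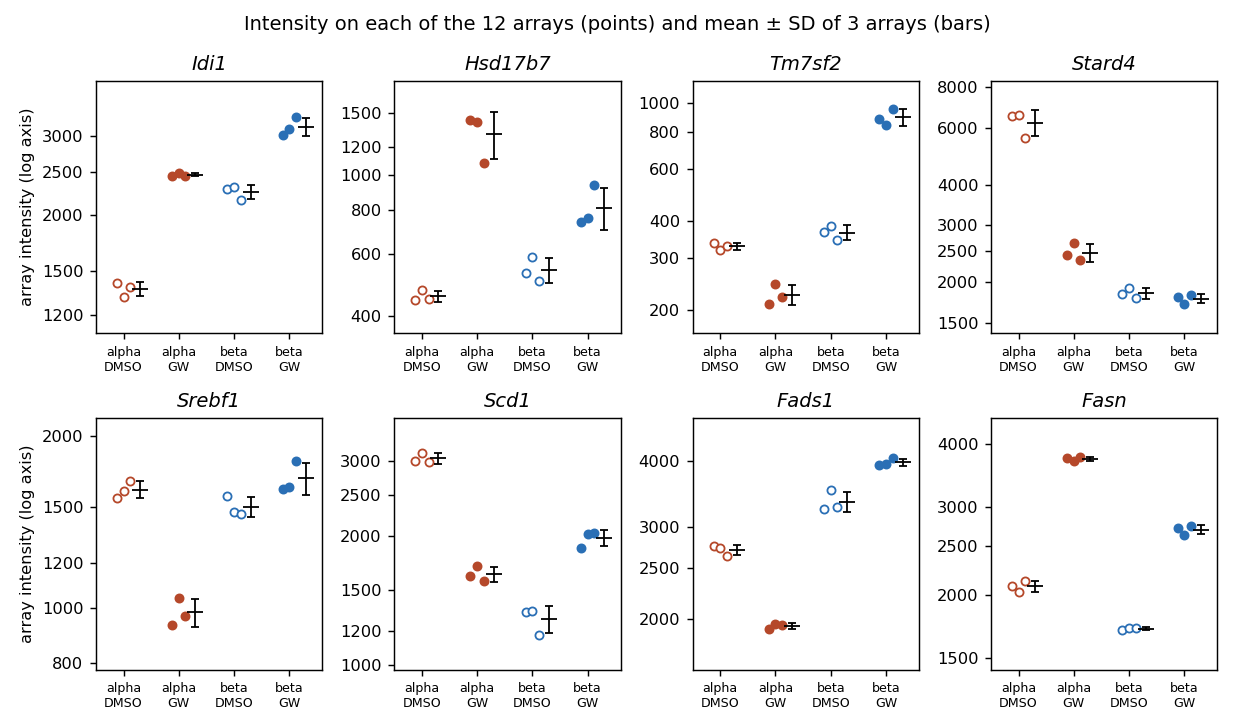
Array intensity (log axis) of 8 genes on each of the 12 arrays, with open circles for DMSO and filled circles for GW8510 (GW on the axis), red for alpha and blue for beta cells, and bars at the mean ± SD of 3 arrays. Idi1, Hsd17b7 and Fasn are higher with GW8510 in both lines, Tm7sf2, Scd1 and Fads1 are lower in alpha and higher in beta cells, and Stard4 and Srebf1 are lower with GW8510 in alpha cells.

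The regulators moved mostly in alpha cells. Of the 5 measured, Srebf1, Srebf2 and Stard4 were lower, Scap was higher and Insig2 was not called in alpha cells. In beta cells Insig2 was higher and the other 4 did not pass. Srebf1 was read at 1559, 1601 and 1668 with DMSO and at 933, 1042 and 969 with GW8510 in alpha cells. The beta cell values were 1573, 1472 and 1460.2 with DMSO and 1614, 1629 and 1809.7 with GW8510. The groups lay apart in both lines, in opposite directions. The fall in alpha cells was to 0.61-fold (log2 -0.71, standard error 0.06, adjusted p = 2.46e-06), and the value in beta cells, 0.16, did not pass (adjusted p = 0.0707).

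Srebf2 was read at 625, 633 and 649 with DMSO and at 540.3, 540.1 and 520.3 with GW8510 in alpha cells. In beta cells the values were 627, 608 and 635 with DMSO and 588, 619 and 595 with GW8510. The alpha groups lay apart, whereas the beta groups overlapped. The log2 fold changes of Srebf2 were -0.25 in alpha cells (adjusted p = 9.26e-04) and -0.05 in beta cells (adjusted p = 0.428). With its second probe set the values were -0.54, called, and -0.18, not called. Scap, the escort of the SREBPs, rose 1.54-fold in alpha cells, from 1067 ± 72.5 to 1641 ± 92.1 (log2 0.62, adjusted p = 8.76e-06), and had -0.07 in beta cells.

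Insig2, which retains SCAP, was read at 1572, 1612 and 1579 with DMSO and at 1508, 1520.3 and 1399 with GW8510 in alpha cells. In beta cells it was read at 1442, 1393 and 1366 with DMSO and at 1605, 1654 and 1739.9 with GW8510. The GW8510 arrays lay below in alpha and above in beta cells. Only the rise in beta cells passed (log2 0.25, standard error 0.05, adjusted p = 0.00345), against -0.11 in alpha cells (adjusted p = 0.144). The other probe sets of Insig2 gave -0.37 and -0.20 in alpha cells, both called, and 0.26 and 0.44 in beta cells, of which the second was called.

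Stard4, a soluble carrier that moves cholesterol between membranes, showed the largest fall of the 32 genes. In alpha cells it was read at 6532, 6558 and 5575 with DMSO and at 2428, 2649 and 2339 with GW8510. Beta cells gave 1837, 1923 and 1786 with DMSO and 1806, 1719.7 and 1826 with GW8510. The alpha groups lay far apart, and the beta groups overlapped. The fall was to 0.398-fold in alpha cells (log2 -1.33, standard error 0.07, adjusted p = 3.88e-08), and the value in beta cells was -0.05 (adjusted p = 0.632). Its other probe set gave -1.28 in alpha cells and 0.47 in beta cells, both called, so the 2 probe sets differed in beta cells.

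In the fatty acid arm, Fasn was the only gene that rose in both lines, and the desaturases went down in alpha cells. Of 10 genes, 1 was higher, 4 were lower and 5 did not pass in alpha cells, and 4 were higher, 1 was lower and 5 did not pass in beta cells. The shares over all genes were 20.2% higher and 21.2% lower in alpha cells, and 19.7% higher and 14.3% lower in beta cells. The medians of the log2 fold changes of the 10 genes were -0.15 and 0.10. Fasn, the multifunctional synthase that makes palmitate, was read at 2087, 2033 and 2136 with DMSO and at 3741, 3699 and 3757 with GW8510 in alpha cells. Its beta cell intensities were 1703, 1724 and 1722 with DMSO and 2721, 2635 and 2741 with GW8510. The groups lay far apart in both lines. Fasn rose 1.79-fold in alpha cells (log2 0.84, standard error 0.05, adjusted p = 3.22e-08) and 1.57-fold in beta cells (log2 0.65, standard error 0.05, adjusted p = 9.70e-07).

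None of the 3 genes that supply Fasn was called higher in either line. Acly, which makes cytosolic acetyl-CoA from citrate, fell in beta cells from 13388 ± 352 to 10626 ± 516 (log2 -0.33, adjusted p = 4.73e-04), and both its other probe sets were called lower there, at -0.53 and -0.32. In alpha cells Acly had 0.08 (adjusted p = 0.299). Acss2, which makes acetyl-CoA from acetate, had -0.16 and -0.09, and Acaca, the carboxylase that makes malonyl-CoA, had -0.11 and -0.09, none of them called. The other probe set of Acss2 was called lower in alpha cells, at -0.40. Acaca was dim, with group means of 32.0 to 40.7 near the lower bound of 20, so a change of it would be read poorly here.

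Elongation and desaturation follow Fasn. Elovl5, an elongase of polyunsaturated fatty acids, rose by 0.21 on the log2 scale in beta cells and had -0.09 in alpha cells, and its call in beta cells ended without beta DMSO replicate 2 (adjusted p = 0.0669). Its other probe set gave 0.10 in beta cells, not called. Elovl6, the elongase of palmitate, had -0.14 in alpha cells and -0.05 in beta cells, neither called, while its other probe set was called lower in beta cells at -0.40.

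Scd1, a stearoyl-CoA desaturase that makes oleate, was read at 3005, 3138 and 2984 with DMSO and at 1618, 1701 and 1570.0 with GW8510 in alpha cells. Its beta cell intensities were 1328, 1339.6 and 1177 with DMSO and 1881, 2025 and 2039.7 with GW8510. The groups lay apart in opposite directions. Scd1 fell to 0.536-fold in alpha cells (log2 -0.90, standard error 0.06, adjusted p = 3.26e-07) and rose 1.55-fold in beta cells (log2 0.63, standard error 0.06, adjusted p = 1.54e-05). Its dimmer probe set gave -0.05 in alpha cells, not called, and 0.90 in beta cells, called.

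Scd2, its paralog, fell in alpha cells from 14666 ± 741 to 9747 ± 582 (log2 -0.59, adjusted p = 1.65e-05) and had 0.10 in beta cells. Both its other probe sets were called lower in alpha cells, at -1.04 and -0.96, and neither was called in beta cells (0.28 and 0.30). The Scd genes are close paralogs, so their probe sets may share signal. Fads1 and Fads2 are the front-end desaturases of polyunsaturated fatty acids and lie beside each other in the genome. Fads1 was read at 2758, 2726 and 2641 with DMSO and at 1909.7, 1956 and 1951 with GW8510 in alpha cells, and at 3245, 3520.5 and 3272 with DMSO and 3935, 3945 and 4056 with GW8510 in beta cells. Its groups also lay apart in opposite directions, with log2 fold changes of -0.48 (adjusted p = 7.91e-06) and 0.25 (adjusted p = 0.00205). Fads2 had -0.28, a call, in alpha cells and 0.11 in beta cells (adjusted p = 0.0971). Its other probe set gave -0.13, not called, and 0.38, called.

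The sterol and fatty acid arms were set side by side on each array, as the mean log2 intensity of each group of genes minus the mean of the line's DMSO arrays. On the alpha GW8510 arrays, the sterol enzymes stood at 0.12, 0.21 and 0.14 and the fatty acid genes at -0.21, -0.15 and -0.20. On the beta GW8510 arrays, the sterol enzymes stood at 0.25, 0.34 and 0.39 and the fatty acid genes at 0.09, 0.12 and 0.21. The sterol mean was thus above the fatty acid mean on all 6 GW8510 arrays. The distance between the arms was 0.33 to 0.36 on the alpha arrays and 0.16 to 0.22 on the beta arrays, and -0.01 to 0.02 on the 6 DMSO arrays. Over all genes, the median log2 fold change was 0.03 in alpha and 0.07 in beta cells. It was 0.025 in beta cells without replicate 3 of GW8510, the array with the higher median and the fatty acid mean of 0.21. The means of the arms describe the chosen genes and carry no test. The share of a group that was called higher went from 9 of 17 sterol enzymes to 1 of 10 fatty acid genes in alpha cells, and from 11 of 17 to 4 of 10 in beta cells. Over all genes, 20.2% were called higher in alpha cells and 19.7% in beta cells.

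**Figure D3:**
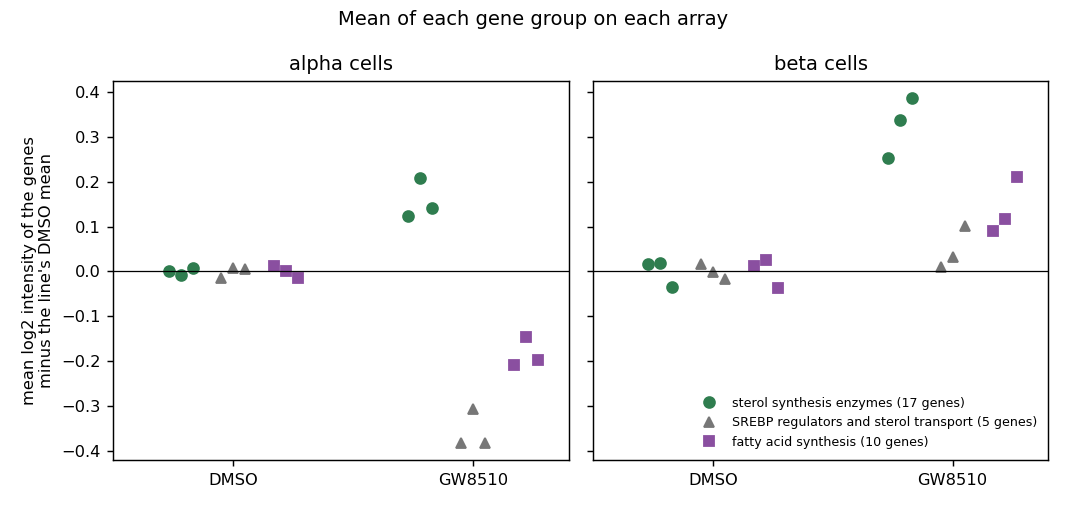
Mean log2 intensity of the 17 sterol synthesis enzymes (circles), the 5 regulators (triangles) and the 10 fatty acid synthesis genes (squares) on each array, minus the mean of the DMSO arrays of the same line (vertical axis). In alpha cells with GW8510 the sterol enzymes lie at 0.12 to 0.21 and the fatty acid genes at -0.21 to -0.15. In beta cells both lie above 0, where the median log2 fold change over all genes was 0.07.

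The response itself was compared between the lines by the contrast of the beta response minus the alpha response. It was above 0 in 16 of the 32 genes, below 0 in 6 and not called in 10, against 16.4% of all genes above and 12.0% below. Above 0 were 7 sterol enzymes, 4 regulators and 5 fatty acid genes. Called in opposite directions in the 2 lines were 3 genes, Tm7sf2, Scd1 and Fads1, all lower in alpha and higher in beta cells. The largest differences were those of Tm7sf2 (1.84, standard error 0.10, adjusted p = 1.19e-07), Scd1 (1.53, standard error 0.09, adjusted p = 2.20e-07) and Stard4 (1.28, standard error 0.10, adjusted p = 2.97e-06). Hsd17b7 followed with the larger response in alpha cells (-0.93, standard error 0.17, adjusted p = 0.00127), and Srebf1 had 0.88 (standard error 0.09, adjusted p = 2.25e-05). The dimmer probe set of Scd1 also gave a called difference, 0.95, although it gave no call in alpha cells.

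The calls of 5 small differences, at adjusted p of 0.0322 to 0.0488, were lost when single arrays were left out. That of Cyp51 (0.24, adjusted p = 0.0488) had an adjusted p of 0.0529 to 0.106 without any 1 array other than alpha GW8510 replicate 2 and beta GW8510 replicate 3. For Fasn (-0.19) the range was 0.0504 to 0.119 without any 1 array other than beta GW8510 replicate 3, which left 1 fatty acid gene below 0 in place of 2. For Srebf2 (0.20) it was 0.0596 to 0.101, with the call kept only without alpha GW8510 replicate 1 or beta GW8510 replicate 1 or 3. Fdft1 (0.25) lost its call without alpha DMSO replicate 1 or 2, alpha GW8510 replicate 1 or 3, any 1 beta DMSO replicate or beta GW8510 replicate 2 (0.0538 to 0.0877). Pmvk (0.35) lost it without alpha DMSO replicate 1 or 3, alpha GW8510 replicate 1 or 3, beta DMSO replicate 1 or beta GW8510 replicate 2 or 3 (0.0563 to 0.0809). The count of sterol enzymes above 0 was 4 in place of 7 without alpha DMSO replicate 1, alpha GW8510 replicate 1 or 3 or beta GW8510 replicate 2. Processing mattered too. With repeated quantile normalization, the adjusted p of Cyp51, Srebf2, Fdft1 and Pmvk was 0.168, 0.242, 0.0849 and 0.0552. Centring on the array median gave 0.134, 0.135 and 0.0683 for Cyp51, Srebf2 and Fdft1. A replicate block gave 0.0671, 0.134, 0.0684 and 0.128 for Cyp51, Srebf2, Fdft1 and Fasn.

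For the 7 sterol enzymes that rose in both lines, the response differed in Idi1 and Hsd17b7, both larger in alpha cells. The dimmer probe set of Idi1 gave a difference of -0.61, not called (limma, adjusted p = 0.183). With the mean of its probe sets the difference of Idi1 was -0.49 (limma, adjusted p = 0.0505). The differences of Mvk (0.05, 95% interval -0.13 to 0.23), Sqle (0.13, -0.04 to 0.30), Lss (0.12, -0.10 to 0.33), Msmo1 (0.04, -0.19 to 0.28) and Sc5d (0.26, 0.03 to 0.50, adjusted p = 0.0905) did not pass. These intervals do not show that the responses were equal. No gene was lower in both lines by limma, whether adjusted or at an unadjusted p under 0.05 (0 genes each), and Mvd, Acss2, Acaca and Elovl6 were called in neither, at adjusted p of 0.0565, 0.0677, 0.43 and 0.389 in alpha cells and 0.491, 0.326, 0.502 and 0.79 in beta cells.

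**Figure D4:**
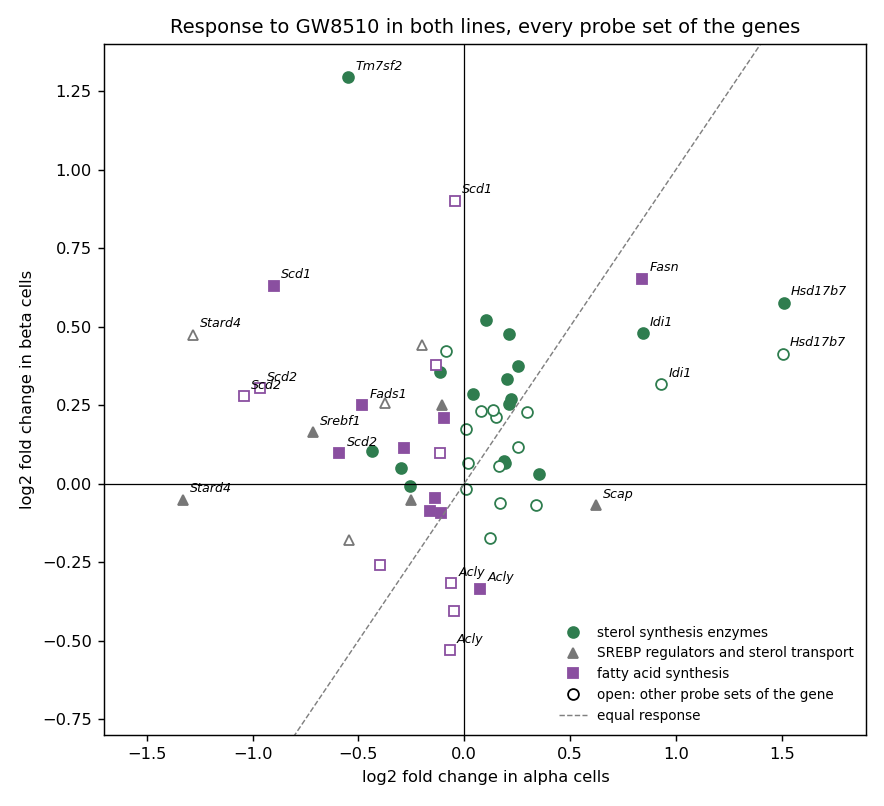
Log2 fold change with GW8510 in alpha cells (horizontal axis) and beta cells (vertical axis) of every probe set of the 32 genes, filled for the probe set used and open for the others, with a dashed line of equal response. Tm7sf2, Scd1 and Fads1 lie in the upper left, Idi1, Hsd17b7 and Fasn in the upper right, and the second probe set of Scd1 at -0.05 and 0.90.

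The starting levels also differed between the lines. With DMSO, 16 of the 32 genes were higher in beta than in alpha cells, 9 were lower and 7 did not pass, against 26.8% and 28.9% of all genes. This comparison shares its DMSO arrays with the comparisons above. Most of the higher genes were sterol enzymes, of which 12 of 17 were higher, 1 was lower (Mvd, -0.22) and 4 did not pass, with a median log2 difference of 0.46. Fdft1 stood 3.23-fold higher in beta cells, at 2637 ± 49.9 against 818 ± 42.9 (log2 1.69, adjusted p = 1.15e-10), and another of its probe sets, 953 in mean intensity, gave 1.56, whereas its 2 dimmest probe sets gave -0.15 and -0.17, neither called. Lss had 0.17, not called, while 1 of its other probe sets was called lower in beta cells, at -0.82. Cyp51 was 2.55-fold higher, from 738 ± 17.8 to 1882 ± 57.4 (log2 1.35). Its other probe sets gave 0.63, called, and -0.10, not called. The call of Mvd ended without alpha DMSO replicate 2 or 3 or beta DMSO replicate 2 or 3 (adjusted p of 0.051 to 0.0879). Its other probe set was also called lower in beta cells, at -0.39 (limma, adjusted p = 0.00352).

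The fatty acid genes were split, with 4 of 10 higher in beta cells (Acly, Elovl5, Fads1 and Fads2) and 5 lower (Acss2, Fasn, Elovl6, Scd1 and Scd2). Elovl6 was far lower in beta cells, at 198 ± 25.5 against 2388 ± 167 (log2 -3.60, standard error 0.12, adjusted p = 9.48e-11), with -3.41 from the second probe set. Acly stood 2.10-fold higher, and Scd1 had a log2 difference of -1.25. Among the regulators, Stard4 was lower in beta cells by a log2 difference of -1.75, Scap by -0.32 and Insig2 by -0.18, whereas Srebf1 (-0.10) and Srebf2 (-0.03) did not pass. The second probe set of Srebf2 was called higher in beta cells, at 0.55 (adjusted p = 1.56e-04).

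Other genes of the pathway were read from lists, and counted beside the background of each line given above. Of 5 measured further mevalonate and sterol genes, 1 was higher, 2 lower and 2 not called in each line. Aacs, which makes acetoacetyl-CoA for cholesterol and fatty acids in the cytosol, rose from 455 ± 17.1 to 802 ± 8.76 in alpha cells (log2 0.82) and by 0.69 in beta cells. Ggps1, which makes geranylgeranyl diphosphate, fell in both lines, with log2 fold changes of -0.24 in alpha and -0.70 in beta cells. Dhdds, which starts dolichol synthesis, had -0.37 in alpha cells, and the mitochondrial thiolase Acat1 had -0.30 in beta cells.

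Of 8 genes of SREBP processing and control, 3 were higher, 2 lower and 3 not called in alpha cells, and 3 higher, 3 lower and 2 not called in beta cells. Mbtps1, the first protease that cuts the SREBPs, fell in both lines, from 1663 ± 52.7 to 827 ± 63.4 in alpha cells (log2 -1.01, adjusted p = 1.43e-07) and by 0.69 on the log2 scale in beta cells. Fbxw7, the ubiquitin ligase subunit that marks nuclear SREBPs for degradation, rose in alpha cells from 277 ± 13.9 to 909 ± 16.4 (log2 1.72) and fell in beta cells (-0.40). Lpin1, which restrains nuclear SREBP activity, rose by 0.60 in alpha cells and had -0.23, a call, in beta cells. Mylip, a ligase that degrades lipoprotein receptors, rose by 0.30 in beta cells.

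Of 16 genes of cholesterol uptake, efflux and storage, 6 were higher, 4 lower and 6 not called in alpha cells, and 4 higher, 1 lower and 11 not called in beta cells. Abca1, the cholesterol efflux pump, fell in alpha cells from 1238 ± 79.5 to 409 ± 22.4 (log2 -1.60, adjusted p = 4.76e-09) and had 0.01 in beta cells, and the difference between the lines was called (1.61). Vldlr, a lipoprotein receptor, fell in alpha cells (-0.86) and rose in beta cells (0.51). Lipa, the lysosomal lipase that frees cholesterol from its esters, rose in both lines (1.17 and 0.86), as did Npc2, which carries cholesterol out of the lysosome (0.73 and 0.65). Osbpl5, an oxysterol-binding protein, rose by 0.89 in alpha cells and had -0.23 in beta cells.

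Of 29 further fatty acid and triglyceride genes, 13 were higher, 4 lower and 12 not called in alpha cells, and 12 higher, 1 lower and 16 not called in beta cells. Plin2, the coat protein of lipid droplets, rose from 1093 ± 36.0 to 2691 ± 117 in alpha cells (log2 1.30) and from 471 to 927 in beta cells (log2 0.98). Elovl1, an elongase of very long chains, rose by 1.14 and 0.45, and Elovl7 by 0.55 and 0.99. Agpat3, an acyltransferase of phospholipid and triglyceride synthesis, rose by 0.17 in alpha and 0.80 in beta cells. Mlxipl, the glucose-responsive factor that also drives lipogenic genes, was lower with GW8510 in both lines, from 146 ± 3.05 to 66.8 ± 10.0 in alpha cells (log2 -1.14) and with -0.37 in beta cells. Other probe sets of the genes in these last 4 lists were not compared.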

How the data were processed

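RNA from the 12 cultures was hybridized to Affymetrix mouse arrays. The values deposited by the authors are linear array intensities, made with RMA per the labels (version not given in the sources used here), a method that removes background, aligns array distributions and summarizes probes into probe sets. They lie between 20 and 20000. Of 22690 probe sets, 64 are controls, 20380 carry 1 gene symbol (platform annotation, updated through Entrez IDs), 691 several and 1555 none here. After 330 at a bound on all arrays were left out, 12255 genes remained, each represented by its brightest probe set (mean log2 intensity over the 12 arrays), with no pseudocount.

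A single limma model (version 3.58.1, R 4.3.3; group means, contrasts, empirical Bayes) covered all 4 groups, with Benjamini-Hochberg adjustment over all genes. The prior added 3.52 degrees of freedom to 8. The code was tested on simulated data. Although the rule for the 35 genes uses no measured value, these genes, the other lists and the tests were chosen with earlier results of these data known. All 32 genes are named. Values on each array are given for genes called with a log2 change of at least 1, the 5 largest differences, Srebf1, Srebf2, Insig2, Fasn and Hmgcs1, and, chosen after their values were seen, Idi1 and Fads1. From other lists, up to 3 called genes with the largest changes are named per line. Promoter sequences are from RefSeq.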

Additional observations from a re-analysis of the deposited data

Results flagged for a closer look

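The response to GW8510 differed between the lines in 22 of the 32 genes by the test of the beta response minus the alpha response (limma, adjusted p under 0.05). Over all genes, 16.4% had a called difference above 0 and 12.0% below 0. The calls of Pmvk, Fdft1, Cyp51, Srebf2 and Fasn were lost without certain single arrays, as given above. That of Idi1 was lost with the mean of all probe sets. Among sterol enzymes the difference was above 0 in Tm7sf2 (1.84), Fdps (0.54), Dhcr7 (0.47), Ebp (0.42), Pmvk (0.35), Fdft1 (0.25) and Cyp51 (0.24), and below 0 in Hsd17b7 (-0.93), Idi1 (-0.36) and Hmgcs1 (-0.32), on the log2 scale. Among the regulators the difference was 1.28 for Stard4, 0.88 for Srebf1, 0.36 for Insig2, 0.20 for Srebf2 and -0.69 for Scap. Among fatty acid genes it was 1.53 for Scd1, 0.73 for Fads1, 0.69 for Scd2, 0.40 for Fads2, 0.30 for Elovl5, -0.19 for Fasn and -0.41 for Acly.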

How the results depend on the processing

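Across 23 other settings (each array left out, another probe set rule, pseudocounts of 1 and 16, repeated quantile normalization, the dimmest 25% left out, other estimates of spread, array weights, 2 groups alone, a replicate block, and centring on the array median, chosen after seeing the data), 2734 of 2908 values of single genes kept their direction and side of the threshold, 32 changed sign without being called in either setting, 98 lost a call and 40 gained 1. Several settings leave the fold change of a gene as it was, so that only its call could change there. They include other estimates of spread, 2 groups alone, the dimmest 25% left out and, within a line, an array of the other line left out. Called in all settings were 18 of 22 genes in alpha cells, 15 of 17 in beta cells, 16 of 22 differences and 23 of 25 between the untreated lines. These tallies read only the brightest probe set of a gene, except with the mean of all probe sets. In the fit of every probe set, 12 genes with several probe sets were called in alpha cells. All their other probe sets were called in the same direction in 6 of these 12. This held in 3 of 10 such genes in beta cells and in 6 of 11 differences. With the mean of all probe sets, 6 of the 32 uncalled signs turned, and so did 4 where a call was involved. These 4 were Fdft1 in alpha cells (0.0122), Stard4 in beta cells (0.21), and Lss (-0.24) and Srebf2 (0.26) between untreated lines. When every probe set of a gene had to be called, 9 genes were higher in beta cells and 2 differences were below 0, in place of 16 and 6. In that setting 6 sterol enzymes in place of 11 were higher in beta cells, and 2 fatty acid genes in place of 4 were lower in alpha cells. Differences below 0 numbered 1 in place of 3 for sterol enzymes and 0 in place of 2 for fatty acid genes. The median of the sterol enzymes in alpha cells was 0.13 with the mean of probe sets and 0.15 to 0.21 without 1 array. That of the fatty acid genes in alpha cells was -0.0904 with array weights and -0.19 to -0.13 without 1 array, and in beta cells 0.19 with the mean of probe sets. Centring moved the median of all genes between the untreated lines from -0.05 to -0.13.

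Same-numbered arrays did not deviate together (correlations of -0.13 to 0.08). With deviations taken from means of 3 arrays, this cannot show whether cultures were set up in pairs. The paper calls its vehicle controls matched, and the main fit used no pairing. With a replicate block, 9 genes were higher and 11 lower in alpha cells, 16 and 1 in beta cells, 13 differences were above and 5 below 0, and 16 and 9 genes differed between untreated lines. The causes of these changes were not tested, and 3 arrays a group limit what small changes can show.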
